A study of Schizosaccharomyces pombe with 8 samples.

Results

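Cytosolic ribosomal proteins of the small subunit are encoded in fission yeast, Schizosaccharomyces pombe, by genes named rps, and many of these genes carry introns. All annotated introns in genes whose symbol begins with rps and a number were taken, provided that spliced plus unspliced reads came to at least 10 in every library. There were 37 such introns in 30 genes, of 5144 annotated introns in the deposited table, and all 37 passed the minimum that 3352 of the 5144 passed. Of the 30 genes 24 had 1 intron, 5 had 2 and 1, rps13, had 3. The reference annotation holds 55 rps genes, and 25 of them had no annotated intron in the table. The introns were 38 to 288 nt long with a median of 72 nt, where all 3352 tested introns ran from 32 to 855 nt with a median of 59 nt. The coding region held 36 of them and the 5′ UTR of rps2202 held the other.

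Poly(A) RNA was sequenced from strains with temperature-sensitive alleles of splicing factors, in directional libraries. The 6 mutants had 1 library each. They were prp10-R379H (a subunit of SF3b, which recognises the branch site), prp22-V801M;G917R (the helicase that frees spliced mRNA), cwf22-G191D (a factor of the assembled spliceosome), sap114-A152V (a subunit of SF3a), prp1-G705D (a protein of the tri-snRNP) and ntr1-W597R (a factor that takes the spliceosome apart). The wild type (WT), strain ED666, had 2 libraries. All strains were grown at 25 °C and shifted to 37 °C for 15 minutes, so WT had the heat shift too, and no unshifted library was compared. Mutant values are given below in the order prp10, prp22, cwf22, sap114, prp1, ntr1.

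Each intron had a count of reads spliced across it and a count of unspliced reads, and the unspliced share is unspliced over the sum of both. Annotated introns held 809751 to 1858792 such reads in the mutants, against 420473 and 846804 in WT. The lowest depth at an rps intron was 142 reads, at intron 1 of rps2502 in WT replicate 1. The 95% Wilson interval of an rps share in 1 library was 3.03 percentage points wide at the median and 10.5 at the widest, and such intervals cover counting error only. No mutant had a second library and nothing states how separate the WT cultures were, so the p-values reflect how far these libraries varied, which may be technical variation.

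Ribosomal protein mRNAs make up a large part of the mRNA of a growing yeast cell, and the proteins they encode assemble with ribosomal RNA into subunits, the small one of which reads the mRNA. An intron is removed after its 5′ splice site, its branch site and its 3′ splice site have been recognised, and in S. pombe introns are short and many genes have several. Many small-subunit proteins are made from a pair of paralogous genes, such as rps1801 and rps1802. The coding sequences of a pair are related, to a degree that varies between pairs, while the introns can differ in length and sequence.

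The introns on which the comparisons of positions and of paralogs turn are shown 5′ to 3′, as read from the NCBI reference sequence on the gene's strand. Capitals mark the first 6 bases, an inferred branch motif and the last 3 bases. The motif is the last CTAAC within the last 60 nt, with G allowed as the third base and T as the fifth, called CTAAC-like below. Where there is none, it is the last TTAAC, with T allowed as the fifth base. Branch sites are not annotated, so the motif is a match of letters only. Coordinates are those of the deposited table, in build ASM294v2, counted from 1. The first set holds both introns of rps2502 (I:4208795-4208844 and I:4208501-4208553, minus strand) and intron 1 of its paralog rps2501 (II:1274253-1274302, plus strand), which differed most.
rps2502 intron 1: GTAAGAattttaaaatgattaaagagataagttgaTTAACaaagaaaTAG
rps2502 intron 2: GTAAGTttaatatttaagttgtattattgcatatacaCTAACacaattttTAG
rps2501 intron 1: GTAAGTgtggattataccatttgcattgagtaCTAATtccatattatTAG
The second set holds the 3 introns of rps13 on the minus strand of chromosome I (I:2746336-2746438, I:2746240-2746302 and I:2746129-2746192). The middle one had more unspliced than spliced reads in every library.
rps13 intron 1: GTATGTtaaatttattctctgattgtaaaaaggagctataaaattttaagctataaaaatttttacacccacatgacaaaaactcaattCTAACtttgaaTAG
rps13 intron 2: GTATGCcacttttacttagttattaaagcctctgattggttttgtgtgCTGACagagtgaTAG
rps13 intron 3: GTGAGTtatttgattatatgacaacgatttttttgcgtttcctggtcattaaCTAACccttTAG
The third set holds the introns of the paralogs rps1801 (II:3620273-3620424, minus strand) and rps1802 (III:1033374-1033432, minus strand), whose WT shares were far apart, and of rps1001 (I:3020011-3020229, minus strand) and rps1002 (II:1448084-1448131, plus strand), which differ in length.
rps1801 intron 1: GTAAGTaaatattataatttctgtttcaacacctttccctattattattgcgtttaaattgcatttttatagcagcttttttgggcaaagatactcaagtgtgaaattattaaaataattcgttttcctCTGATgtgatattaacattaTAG
rps1802 intron 1: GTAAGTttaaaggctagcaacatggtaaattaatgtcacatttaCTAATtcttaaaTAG
rps1001 intron 1: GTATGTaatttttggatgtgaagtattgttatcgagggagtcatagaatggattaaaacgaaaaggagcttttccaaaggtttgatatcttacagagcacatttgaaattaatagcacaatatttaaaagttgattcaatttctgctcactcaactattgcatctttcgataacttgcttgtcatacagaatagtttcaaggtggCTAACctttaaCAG
rps1002 intron 1: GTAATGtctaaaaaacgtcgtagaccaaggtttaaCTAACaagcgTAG

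The first comparison set the rps introns beside the rest of the transcriptome. The typical rps intron was removed more completely than the typical intron in every library. The median unspliced share of the 37 introns was 28.3, 33.2, 31.4, 44.7, 14.3 and 55.2% in the mutants, against 2.42 and 2.78% in WT. The mutant medians averaged 34.5% ± 14.1 (SD, n = 6) and the WT medians 2.60% ± 0.252 (SD, n = 2). Over the other 3315 tested introns the same averages were 66.6% ± 15.2 in the mutants and 5.44% ± 0.624 in WT. The prp1 library was lowest and the ntr1 library highest of the mutants for rps introns and for the others alike.

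Of the 37 rps introns, 30, 30, 30, 30, 30 and 31 lay below the median of all tested introns in the mutants, against 26 and 27 in WT. Unspliced reads outnumbered spliced ones at 9, 12, 10, 17, 3 and 22 rps introns in the mutants, against 2 in each WT library, where they were intron 1 of rps2202 and intron 2 of rps13. Introns of the large-subunit genes rpl and rpp, 52 in 45 genes, had medians averaging 45.6% ± 16.3 in the mutants and 4.12% ± 0.134 in WT. The lists were described and not tested, since their members were chosen with results known.

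**Figure D1:**
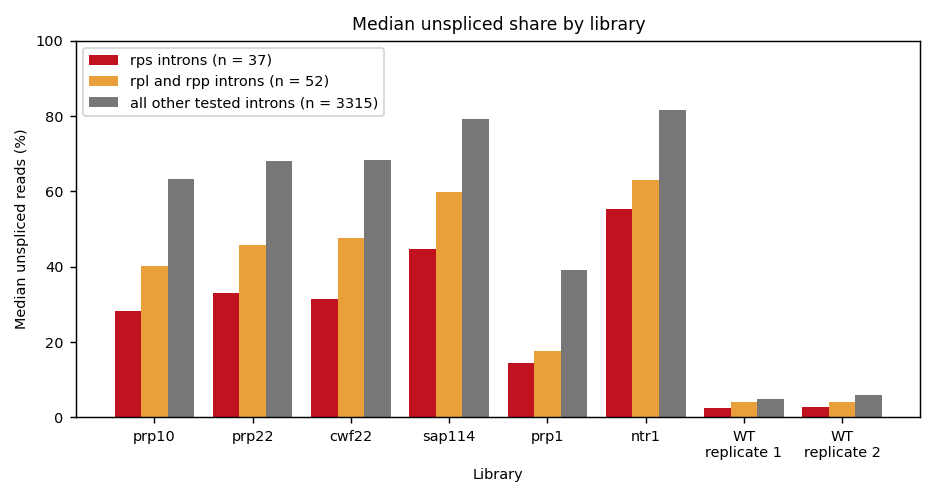
Median unspliced share (%, vertical axis) of 37 rps introns, 52 rpl and rpp introns and the other 3315 tested introns in each of the 8 libraries. The rps bar is the lowest of its group in all 8 libraries, at 28.3% in prp10 and 55.2% in ntr1 and at 2.42% and 2.78% in WT.

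The second comparison took the 6 mutants together against WT, intron by intron. Unspliced RNA rose relative to spliced RNA at 35 of the 37 introns and fell at none, by edgeR's quasi-likelihood F test on spliced and unspliced counts with Benjamini-Hochberg adjustment over all 3352 introns at 0.05. Of all introns tested 95.6% rose in the same test, so the rps count is near the background. The median change of the rps introns was 4.28 on the log2 odds scale (odds of unspliced to spliced reads, mutants over WT), and that of all tested introns was 5.10. In all 37, every mutant library lay above both WT libraries, as it did at 97% of all introns. DESeq2 called 36 of the 37 and limma 35.

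When the log odds of each library were centred on that library's median over all tested introns, 0 rps introns rose and 7 fell (limma, adjusted p under 0.05), where 13.4% of all introns rose and 18.3% fell. The count of 7 of 37 that fell is near the background. The median of the rps introns on this relative scale was -0.69, and that of all tested introns -0.06. The 7 that fell relative to the rest were intron 2 of rps13 (-4.03), rps1801 (-3.42), rps2202 (-2.93), intron 2 of rps3002 (-1.96), rps3001 (-1.72), rps1902 (-1.28) and rps1702 (-1.25). Each of them had a higher unspliced share in every mutant library than in WT, so they rose less than the typical intron.

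**Figure D2:**
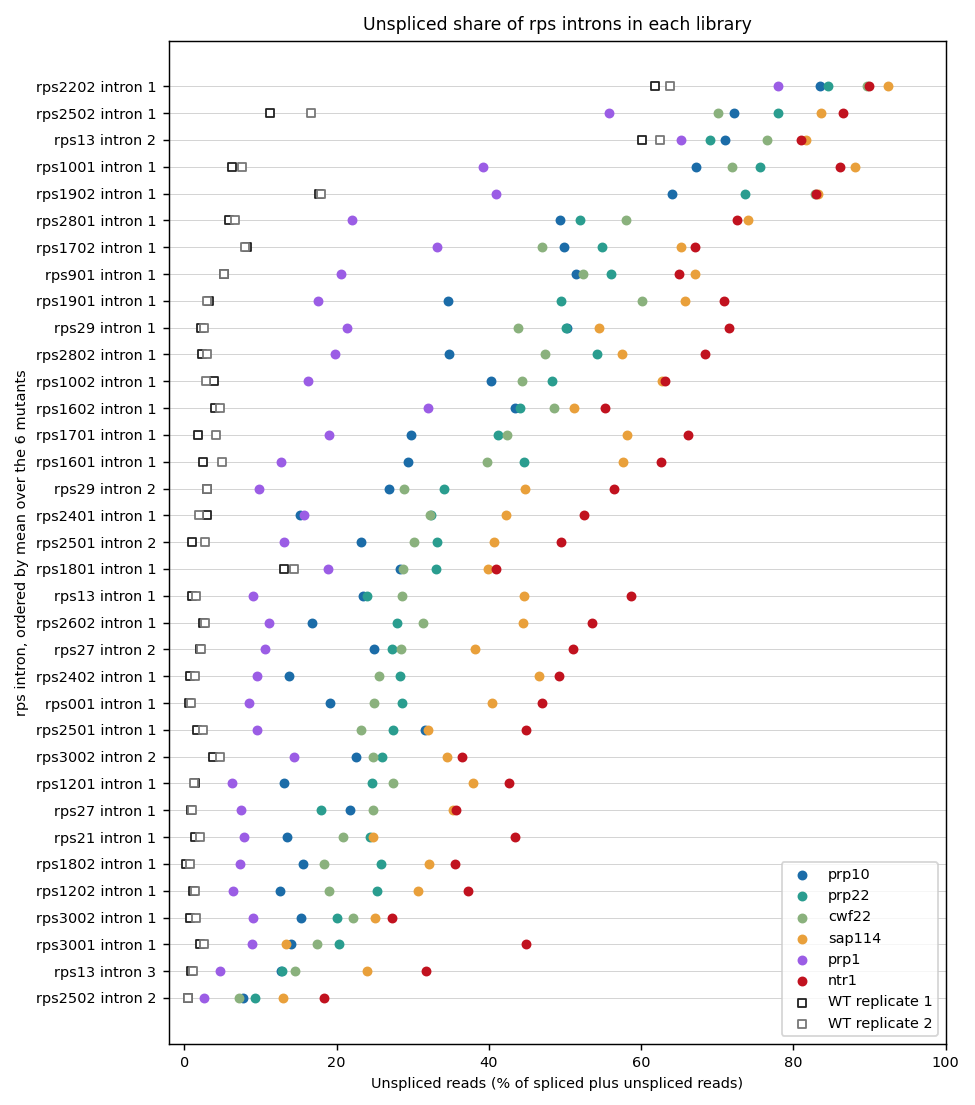
Unspliced reads as a percentage of spliced plus unspliced reads (horizontal axis) at rps introns (rows, ordered by the mean of the 6 mutants; 2 of the 37 are not drawn), with filled circles for the mutants and open squares for WT. The mutant means run from 9.68% at intron 2 of rps2502 to 86.3% at rps2202, and every mutant point lies to the right of both WT points of its row.

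The introns of rps genes differed widely in how much unspliced RNA they reached. A large difference was at rps1001, whose protein lies at the mRNA entry side of the subunit head. Its share was 67.2, 75.6, 72.0, 88.1, 39.2 and 86.2% in the mutants, against 6.23 and 7.58% in WT, a difference of 64.5 percentage points between the means. The log2 odds change was 5.27 ± 0.96 (SE) with adjusted p = 3.4e-06 in edgeR. The groups did not overlap, and prp1 stood lowest.

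Differences of 60.5 percentage points at intron 1 of rps2502 and of 53.5 at rps1902 were also among the largest in points. On the log2 odds scale they were not: the changes were 4.28 ± 0.89 and 3.68 ± 0.88 (SE), where the rps median was 4.28. Rps19 is a head protein, and the human one is mutated in Diamond-Blackfan anaemia. The rps1902 intron (II:535459-535631) had 64.1, 73.6, 82.8, 83.3, 41.0 and 83.0% unspliced reads in the mutants, against 17.7 and 17.99% in WT. Its WT shares were among the higher ones. In its paralog rps1901 (II:3818374-3818529) the share was 34.6, 49.5, 60.1, 65.8, 17.6 and 71.0% in the mutants, against 3.23 and 2.99% in WT.

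Intron 2 of rps13 was not called (log2 odds change 0.89 ± 0.90, SE; adjusted p = 0.332 in edgeR). Rps13 is a protein of the central part of the subunit, next to the ribosomal RNA. The intron had 71.1, 69.0, 76.5, 81.6, 65.2 and 81.1% unspliced reads in the mutants, against 60.1 and 62.4% in WT. All 6 mutants were above WT, by 12.8 percentage points between the means, and unspliced reads already outnumbered spliced ones in WT. Reads at this intron came to 5677 in WT replicate 1, against 1896 and 2984 at introns 1 and 3. The share therefore need not be the fraction of transcripts that keep the intron, and what the additional reads are was not tested.

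The rps1801 intron was not called either (1.5 ± 0.83, SE; adjusted p = 0.0781 in edgeR). Rps18 sits at the top of the head and contacts the large subunit. The share was 28.3, 33.0, 28.7, 39.9, 18.8 and 40.9% in the mutants, against 13.1 and 14.3% in WT, again with no overlap. This call turned on the tool and on 1 library: adjusted p was 0.0230 in DESeq2 and 0.00661 in edgeR without prp1.

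The intron in the 5′ UTR of rps2202 (I:1512199-1512345) was the most retained of the rps introns in all 8 libraries. Rps22 is a protein of the subunit body. Its share was 83.5, 84.5, 89.7, 92.5, 78.0 and 89.9% in the mutants, against 61.9 and 63.9% in WT. The change of 1.99 ± 0.83 (SE) passed in edgeR with adjusted p = 0.0214. It did not pass in edgeR without cwf22 (adjusted p = 0.0547), without WT replicate 1 (0.134) or without WT replicate 2 (0.114).

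Besides intron 2 of rps13 and rps1801, the smallest differences in percentage points were at 3 introns that were spliced from most transcripts in WT. Intron 2 of rps2502 moved by 9.21 percentage points, intron 3 of rps13 by 15.7 and rps3001 by 17.5. On the log2 odds scale intron 2 of rps2502 changed by 4.29 and intron 3 of rps13 by 4.15, near the rps median of 4.28. The rps3001 intron (I:4890374-4890425) had 14.0, 20.4, 17.4, 13.4, 8.84 and 44.8% unspliced reads in the mutants, against 2.10 and 2.51% in WT, so that ntr1 stood far above the other mutants. Rps30 lies at the mRNA entry of the subunit and is made in mammals as a fusion with a ubiquitin-like protein. On the odds scale the rps3001 change was 3.18 ± 0.91 (SE; adjusted p = 0.00106 in edgeR).

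The third comparison took each strain against WT, where the spread comes from the WT pair alone and a lone mutant library is assumed to vary like that pair. The prp10 mutant had 36 of 37 rps introns that rose (91.8% of all tested introns rose), prp22 had 36 (95.7%), cwf22 had 37 (93.7%), sap114 had 37 (96.6%), prp1 had 35 (86.2%) and ntr1 had 37 (97.4%), by edgeR with adjusted p under 0.05. None fell in any strain, and of all tested introns 0.0298% fell in prp1 and 0 in the other strains. The median rps change on the log2 odds scale was 3.89, 4.39, 4.36, 5.04, 2.5 and 5.46 in the mutants, where that of all tested introns was 4.82, 5.0, 5.13, 5.92, 3.30 and 6.17.

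The intron that changed least was intron 2 of rps13 in all 6 strains. In edgeR it missed the threshold in prp10 (adjusted p = 0.126), prp22 (0.228) and prp1 (0.560), and the rps1801 intron missed it in prp1. The largest log2 odds change was at rps1802 in prp22 (6.21), cwf22 (5.58), sap114 (6.66), prp1 (4.06) and ntr1 (6.88), and at intron 1 of rps29 in prp10 (5.34). The rps1802 value rests on a WT share of 0.148% in replicate 1 (95% Wilson interval 0.0503 to 0.434%) and 0.675% in replicate 2.

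The fourth comparison took each strain against the other 5 mutants. The prp1 mutant retained less than the others: its share was the lowest of the mutants at 36 of the 37 introns, and its log2 odds were below those of the others at all 37. This passed at 15 rps introns (edgeR, adjusted p under 0.05), where 38.2% of all tested introns fell in the same comparison, so in this fit the rps count is near the background. The largest was at rps1901, with 17.6% in prp1 against 56.2% ± 14.4 (SD, n = 5) in the others, a log2 odds difference of -2.62 ± 0.93 (SE; adjusted p = 0.0317 in edgeR). The count depends on the tool and on single libraries. DESeq2 called 23 rps introns and 43.9% of all introns, and limma called 0 and 15.5%. Without cwf22 edgeR called 3 rps introns and 24.2% of all, and without sap114 3 and 21.9%.

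No rps intron passed for prp10, prp22, cwf22, sap114 or ntr1 against the other mutants in edgeR, DESeq2 or limma, and none had an unadjusted p under 0.05 in edgeR. Of all 3352 tested introns 0 passed for these strains in edgeR and DESeq2, and in limma only 2 rose, both for ntr1. The lack of calls is therefore the background of these fits and not particular to rps introns. The ntr1 share was the highest at 29 introns and the sap114 share at the other 8. For ntr1 the intron farthest from the others was rps3001, with 44.8% in ntr1 (95% Wilson interval 43.5 to 46.1%) against 14.8% ± 4.36 (SD, n = 5) in the others (log2 odds difference 2.28 ± 1.27, SE; adjusted p = 0.622 in edgeR). For sap114 it was rps1001, with 88.1% against 68.1% ± 17.6 in the others (1.65 ± 1.32; adjusted p = 0.859 in edgeR).

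For prp10 the farthest was rps2401 (I:3599172-3599240), which codes for a protein of the subunit body. Its share was 15.2, 32.4, 32.3, 42.3, 15.7 and 52.6% in the mutants, against 3.0 and 1.97% in WT. It was the only rps intron at which prp10, and not prp1, was lowest. The difference of prp10 from the other mutants was -1.53 ± 1.41 (SE; adjusted p = 1.00 in edgeR). For cwf22 the farthest was rps1902 (0.96 ± 1.42, SE; adjusted p = 1.00) and for prp22 it was rps1202 (0.56 ± 1.42, SE; adjusted p = 1.00), both by edgeR.

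The fifth comparison set introns of the same gene beside each other, within each library, in the 6 genes with 2 or 3 introns. Of 7 differences between a later intron and the first, 6 had the same sign in all 6 mutants (two-sided exact sign-flip permutation test over the 6 mutants, p = 0.0313, the smallest the design allows, adjusted p = 0.0365 over the 7). The largest was in rps2502, whose protein lies in the head near the exit site of tRNA. Intron 1 had 72.2, 78.0, 70.1, 83.7, 55.7 and 86.6% unspliced reads in the mutants, against 11.3 and 16.6% in WT. Intron 2 had 7.72, 9.30, 7.17, 12.99, 2.53 and 18.4% in the mutants, against 0.491 and 0.456% in WT. The first intron was the higher in every library.

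The difference of intron 2 minus intron 1 of rps2502 was -5.09 ± 0.271 on the log2 odds scale in the mutants (SD, n = 6) and -5.05 ± 0.535 in WT (SD, n = 2), so the means differed by less than either spread (two-sided exact permutation test over the 28 splits into 6 and 2, p = 1.00). The introns of rps2502 also differed in spliced reads: intron 2 had 16.2, 16.2, 15.0, 14.0, 15.8 and 14.9 times as many as intron 1 in the mutants, against 22.5 and 25.0 times in WT. In WT replicate 1, intron 1 had 126 spliced and 16 unspliced reads, against 2836 and 14 at intron 2. In prp10 intron 1 had 192 and 498, against 3118 and 261 at intron 2. The share at intron 1 therefore need not be the fraction of transcripts that keep the intron. Why fewer reads lay at intron 1 was not tested. Intron 1 follows 3 coding nt and intron 2 follows 244. As the sequences above show, intron 1 of rps2502 begins with GTAAGA and holds no CTAAC-like motif in its last 60 nt. Its intron 2 begins with GTAAGT and holds CTAAC. Intron 2 of rps29 also begins with GTAAGA and holds no such motif, and its mutant mean was 33.5%. The part of sequence or place in the difference was not tested.

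In rps13, intron 1 had 23.4, 24.0, 28.5, 44.7, 9.05 and 58.6% unspliced reads in the mutants, against 1.00 and 1.58% in WT. Intron 3 had 12.7, 12.8, 14.5, 23.9, 4.66 and 31.7% in the mutants, against 0.838 and 1.11% in WT. Intron 2, given above, was higher than both in all 8 libraries. Intron 2 minus intron 1 was 2.86 ± 0.860 on the log2 odds scale in the mutants (SD, n = 6) and 6.93 ± 0.352 in WT (SD, n = 2). Intron 3 minus intron 1 was -1.23 ± 0.222 in the mutants and -0.39 ± 0.175 in WT.

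Spliced reads at the 3 rps13 introns differed far less than unspliced reads, with 2055, 2186 and 3391 at introns 1, 2 and 3 in prp10, and 1877, 2266 and 2959 in WT replicate 1. Unspliced reads came to 629, 5371 and 493 in prp10 and 19, 3411 and 25 in WT replicate 1. No gene is annotated on the opposite strand over these introns. What the additional reads within intron 2 are was not tested.

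In rps29, a zinc-binding protein of the head, the first intron was the more retained in all 6 mutants. Intron 1 (II:516504-516554) had 50.3, 50.1, 43.9, 54.5, 21.4 and 71.5% unspliced reads in the mutants, against 2.20 and 2.58% in WT. Intron 2 (II:516655-516726) had 26.9, 34.1, 28.9, 44.7, 9.75 and 56.5% in the mutants, against 2.98 and 3.02% in WT. Intron 2 minus intron 1 was -1.03 ± 0.318 on the log2 odds scale in the mutants (SD, n = 6) and 0.33 ± 0.140 in WT (SD, n = 2). The 95% Wilson intervals of the introns overlap in each WT library, so an order in WT was not detectable at this depth. The change of that difference had an exact permutation p of 0.0357 over the 28 splits, the smallest they can give. Its adjusted p of 0.05 over the 7 comparisons is not under the threshold. The changes in rps13 (introns 2 and 3), rps27 and rps3002 had the same exact permutation p and adjusted p. Thus 5 of the 7 reached the smallest p and 0 passed.

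The second intron was the more retained in rps27 and rps3002. Rps27 is a zinc-binding protein of the platform. Its intron 1, with 38 nt the shortest of the rps introns (II:517350-517387), had 21.8, 17.9, 24.7, 35.4, 7.46 and 35.7% in the mutants, against 0.923 and 0.951% in WT. Intron 2 (II:517481-517684, 204 nt) had 24.9, 27.3, 28.4, 38.2, 10.6 and 51.0% in the mutants, against 2.08 and 2.24% in WT. The difference was 0.49 ± 0.305 in the mutants (SD, n = 6) and 1.21 ± 0.0497 in WT (SD, n = 2) on the log2 odds scale.

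In rps3002, intron 1 (II:2349348-2349396) had 15.3, 20.02, 22.2, 25.0, 8.98 and 27.3% in the mutants, against 0.751 and 1.49% in WT. Intron 2 (II:2349096-2349218) had 22.6, 26.0, 24.8, 34.4, 14.3 and 36.4% in the mutants, against 3.81 and 4.68% in WT. The later intron was higher in all 8 libraries, by 0.57 ± 0.197 on the log2 odds scale in the mutants (SD, n = 6) and 2.01 ± 0.459 in WT (SD, n = 2).

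In rps2501 neither intron was the higher in all 6 mutants. Its intron 1 had 31.6, 27.4, 23.2, 32.1, 9.52 and 44.9% in the mutants, against 1.63 and 2.46% in WT, and intron 2 (II:1274544-1274647) had 23.2, 33.2, 30.2, 40.7, 13.03 and 49.5% in the mutants, against 1.01 and 2.68% in WT. Intron 2 was higher in 5 of 6 mutants, by 0.27 ± 0.444 on the log2 odds scale (SD, n = 6; exact sign-flip permutation p = 0.219). With any mutant left out the smallest exact p is 0.0625 and 0 of the 7 comparisons can pass.

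**Figure D3:**
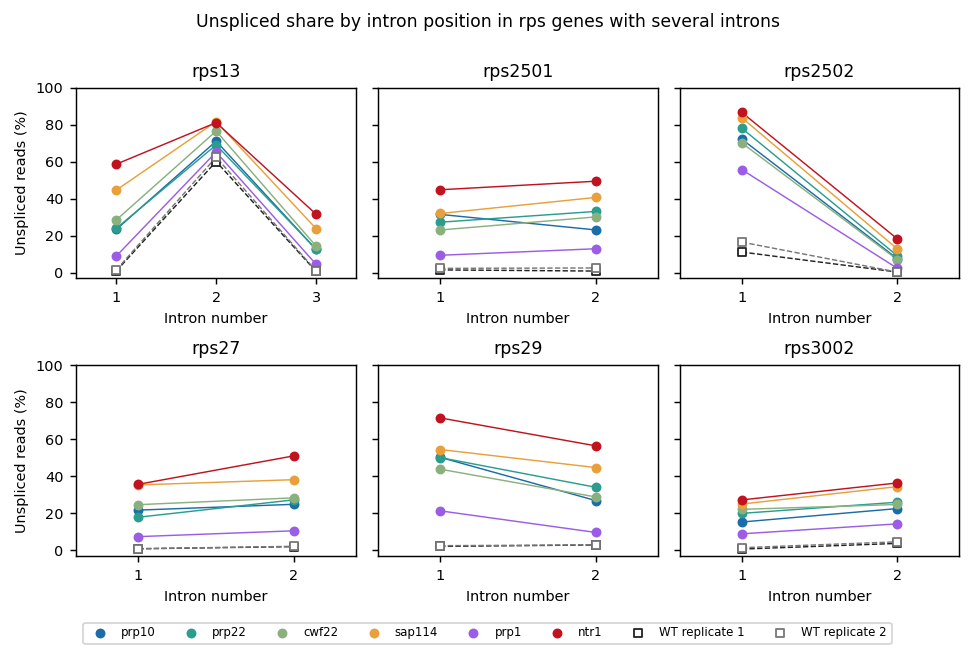
Unspliced reads (%, vertical axis) by intron number (horizontal axis) in the 6 rps genes with 2 or 3 introns, with 1 line per library, solid for the mutants and dashed for WT. In rps13 the middle intron stands between 65.2% and 81.6% in the mutants and at 60.1% and 62.4% in WT, and in rps2502 every line falls from the first intron to the second.

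The sixth comparison set introns at the same place of paralogous genes beside each other, 12 pairs in all, within each library. In 7 pairs the same paralog was higher in all 6 mutants and in both WT libraries (two-sided exact sign-flip permutation test, p = 0.0313), but over 12 pairs the adjusted p was 0.0536, and 0 of 12 passed. The same p, the smallest the design allows, gave an adjusted p of 0.0365 over the 7 position differences. Whether it passes turns on how many comparisons were made and how many reached it, so the tests do not set positions apart from paralogs. The largest differences were in the introns of rps2501 and rps2502, in opposite directions. At intron 1, rps2501 minus rps2502 was -3.11 ± 0.392 on the log2 odds scale in the mutants (SD, n = 6) and -2.94 ± 0.0466 in WT (SD, n = 2). At intron 2 it was 2.24 ± 0.25 in the mutants and 1.84 ± 1.05 in WT. Intron 1 is 50 nt long in both genes. As given above, the share at intron 1 of rps2502 need not be the fraction of transcripts that keep the intron.

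In the Rps10 pair, the intron of rps1001 has 219 nt and that of rps1002 has 48. The rps1002 intron had 40.3, 48.3, 44.4, 62.7, 16.3 and 63.1% unspliced reads in the mutants, against 3.93 and 2.78% in WT, and was lower than that of rps1001, given above, in every library. The difference was 1.79 ± 0.188 on the log2 odds scale in the mutants (SD, n = 6) and 1.10 ± 0.573 in WT (SD, n = 2).

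The Rps18 pair differed less in the mutants than in WT. The rps1802 intron, with 59 nt the shorter of the pair, had 15.6, 25.8, 18.3, 32.1, 7.25 and 35.6% unspliced reads in the mutants, against 0.148 and 0.675% in WT. The difference rps1801 minus rps1802 was 0.81 ± 0.466 on the log2 odds scale in the mutants (SD, n = 6) and 5.53 ± 1.31 in WT (SD, n = 2). A change of the difference had the smallest p that the 28 splits allow (exact permutation p = 0.0357) in this pair and in those of rps1001 and rps1901, and the adjusted p of 0.107 did not pass.

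The smallest differences were in the Rps30 and Rps12 pairs. At rps3001 and intron 1 of rps3002 the difference was -0.10 ± 0.727 on the log2 odds scale in the mutants (SD, n = 6), less than its spread, and turned to 0.11 without sap114. In WT it was 1.10 ± 0.488 (SD, n = 2). Rps12 lies in the beak of the subunit. The rps1201 intron (III:553566-553647) had 13.1, 24.6, 27.4, 38.0, 6.26 and 42.7% unspliced reads in the mutants, against 1.38 and 1.28% in WT.

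The rps1202 intron (II:498544-498600) had 12.6, 25.4, 19.1, 30.7, 6.41 and 37.3% in the mutants, against 1.16 and 1.42% in WT. The Rps12 difference of 0.24 ± 0.299 in the mutants (SD, n = 6; exact sign-flip permutation p = 0.156) was also less than its spread. Of the remaining pairs, rps1901 was below rps1902 by a mean log2 odds difference of -1.50 ± 0.283 and rps1701 below rps1702 by -0.65 ± 0.466 in the mutants (SD, n = 6), each in all 6 mutants. The rps1601, rps2401 and rps2801 pairs had mixed signs.

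The longer intron was the more retained on average over the mutants in 7 pairs, and 1 pair had introns of equal length. The 30 nt of exon on either side of the introns were 63.3 to 96.7% identical between paralogs. How reads that fit both paralogs were counted is not given in the sources used here, and its part in these differences was not tested.

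**Figure D4:**
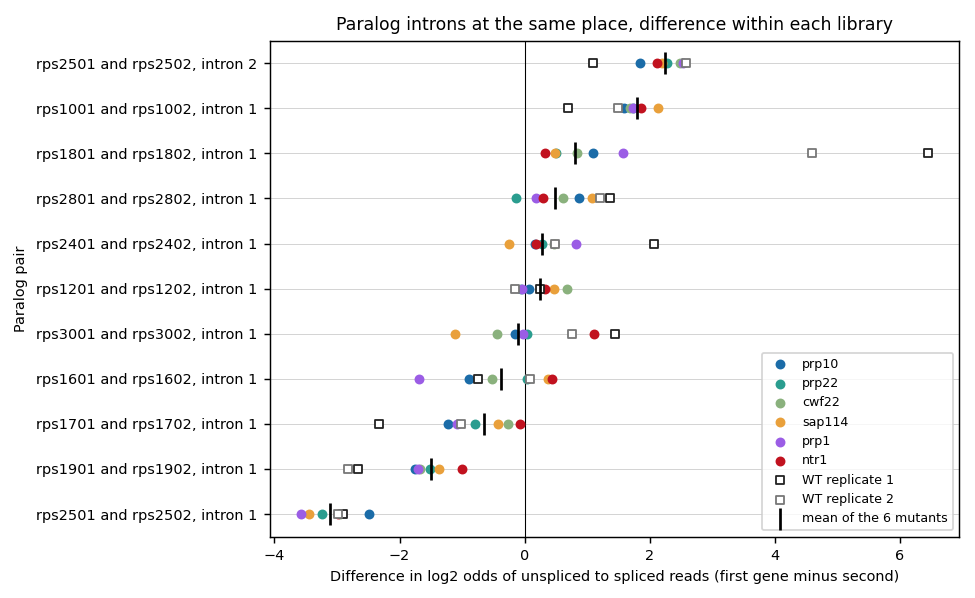
Difference between paralogs in the log2 odds of unspliced to spliced reads (horizontal axis, first gene minus second) for pairs of introns (1 of the 12 is not drawn), with filled circles for the mutants, open squares for WT and a bar for the mean of the 6 mutants. Intron 1 of rps2501 lies -3.11 from that of rps2502 on average over the mutants, and the WT points of the Rps18 pair lie far to the right of its mutant points.

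The seventh comparison used spliced reads alone, scaled between libraries by TMM. Spliced reads of rps introns made up a larger share in the mutants than in WT: 17.5% ± 1.81 (SD, n = 6) of all spliced reads at annotated introns, against 11.8% ± 0.370 (SD, n = 2) in WT. Their share of the unspliced reads was 5.92% ± 0.815 in the mutants and 10.5% ± 0.122 in WT. Intron 2 of rps13 alone held 19.2% ± 7.70 of the rps unspliced reads in the mutants (SD, n = 6), against 65.0% ± 1.72 in WT (SD, n = 2). Without it the rps share of unspliced reads was 4.87% ± 1.03 in the mutants and 3.95% ± 0.236 in WT, so the direction turned and the ranges overlapped. The share of spliced reads without it was 16.9% ± 1.82 in the mutants and 11.3% ± 0.390 in WT, with no overlap in either form. Leaving out this intron was chosen after seeing the data. The spliced reads are relative to the library, in which fewer reads are spliced in the mutants. Over summed reads the unspliced share averaged 40.5% for rps introns and 67.7% for all other tested introns in the mutants. In WT it was 10.9% and 11.9%. The share of spliced reads is thus not independent of the first comparison, and how far that difference accounts for it was not tested. Nor can a change in RNA per cell be told apart from a change in the makeup of the culture.

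By edgeR with adjusted p under 0.05, spliced reads rose at 21 of the 37 rps introns and fell at 0, where 1.73% of all tested introns rose and 2.42% fell. The median log2 change was 0.88 for rps introns and -0.03 for all tested introns. Spliced reads were higher in the mutants, without regard to a test, at 36 rps introns and at 48.4% of all introns. Intron 1 of rps2502 had the largest log2 change, 1.39 ± 0.27 (SE; adjusted p = 0.0281 in edgeR), and rps1701, coding for another head protein, had 1.10 ± 0.24 (SE; adjusted p = 0.0316 in edgeR). The exception was rps2202, at -0.57 ± 0.23 (SE; adjusted p = 0.121 in edgeR). Introns of rpl and rpp genes had a median of 0.78, with 17 of 52 rising.

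These calls rested on few libraries: 0 of 37 passed without prp10, without cwf22, without WT replicate 1 or without WT replicate 2. There were 8 without prp22, 10 without sap114, 23 without ntr1 and 35 without prp1, where 1 fell. Of all tested introns 0 to 9.61% rose in these 8 fits. DESeq2 called 33, and 4.12% of all introns rose in it. The median rps change stayed between 0.79 and 0.95 on the log2 scale in all 8 of these fits.

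The introns were also described by their sequence and place. Introns of 100 nt or more, 16 in all, had a median of the mutant means of 44.3%, and the 21 shorter ones 28.1%. The WT medians were 4.28% and 2.04% for the same classes. Length and mutant mean had a Spearman correlation of 0.37 over the 37 introns and 0.32 over all tested introns, given as a description, since the introns share libraries and base composition. The 24 introns that were alone in their gene had a median of 44.3%, the first of several 29.7% and the later ones 30.1%, again over the mutant means.

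Among rps introns 12 began with GTATGT and 13 with GTAAGT, which is 32.4% and 35.1% of them, against 22.1% and 28.5% of the 3351 tested introns on the 3 chromosomes. The last 3 bases were TAG in 31 of the 37. CTAAC stood within the last 60 nt, on the strand of the gene, in 62.2% of rps introns and 46.2% of all. No CTAAC-like motif was found in 4 rps introns, or 10.8%, against 22.7% of all: intron 1 of rps2502, both introns of rps29 and intron 1 of rps3002. Their mutant means ran from 19.8% to 74.4%, so the 4 did not share a level. A match or its absence says nothing of where the branch lies.

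An annotated gene lay on the opposite strand over 18 of the 37 introns. Their median of mutant means was 31.3%, against 45.7% over the 19 introns without one. The libraries were directional, but whether counting used the strand is not given in the sources used here, and the part of such genes in the unspliced counts was not tested.

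**Figure D5:**
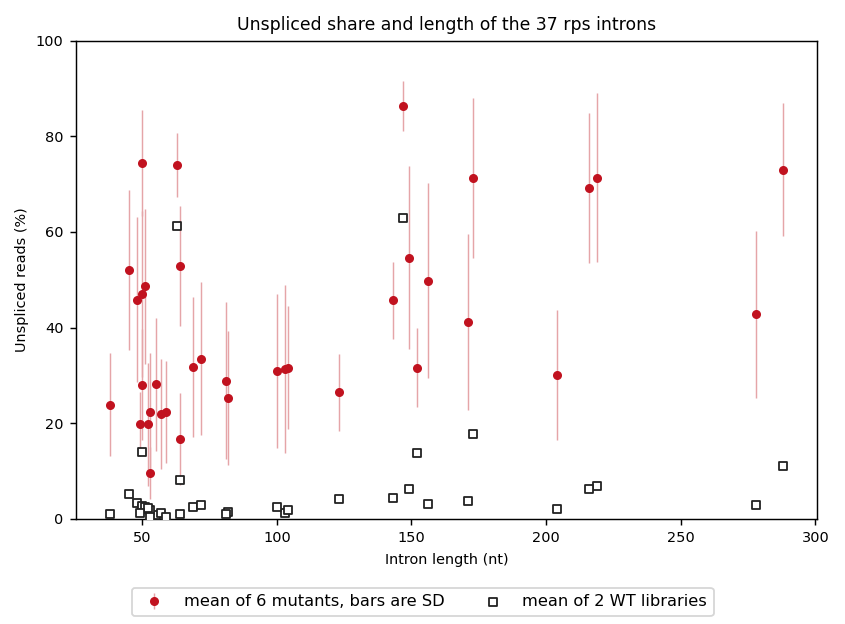
Unspliced reads (%, vertical axis) against intron length (nt, horizontal axis) for the 37 rps introns, with circles for the mean of the 6 mutants (bars are SD) and squares for the mean of the 2 WT libraries. The mutant means of the 21 introns under 100 nt run from 9.68% to 74.4%.

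The table also held 85 junctions in 31 rps genes that are not annotated introns: 38 with another 5′ splice site, 22 with another 3′ splice site, 21 new introns and 4 other pairings. One of them, in rps3 (II:4239039-4239290, 252 nt), held most of their reads, with 1801, 2592, 1924, 1849, 3225 and 2413 in the mutants, against 1357 and 3263 in WT. Rps3 lies at the mRNA entry and has no annotated intron in the table. The other 84 junctions together came to between 0.465 and 0.599% of the annotated spliced reads of rps introns in the mutants, against 0.534 and 0.451% in WT, so the ranges overlapped.

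Another 3 junctions were chosen after their values were seen. A shorter junction in rps1801 joins a 5′ splice site within the intron to the annotated 3′ splice site (II:3620273-3620326, 54 nt). It had 0, 4, 0, 0, 1 and 0 reads in the mutants, against 11 and 31 in WT, or 0.0452% ± 0.0895 (SD, n = 6) and 1.32% ± 0.385 (SD, n = 2) of the reads at the annotated junction (exact permutation p = 0.0357 over the 28 splits, adjusted p = 0.107 over 3, which does not pass). A count of 0 allows a share of up to 0.236% in cwf22, the shallowest of the libraries without a read. Skipping of exon 2 in rps13 was at 0.396% ± 0.133 in the mutants and 0.501% ± 0.189 in WT. A junction of rps27 shifted by 3 nt stood at 0.685% ± 0.0402 in the mutants and 0.604% ± 0.109 in WT. In both of these the difference was less than the spread between the WT libraries.

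The other gene lists were taken by symbol. All 27 introns of mitochondrial ribosomal protein genes rose in the mutants as a class, with a median log2 odds change of 4.76, and so did all 28 introns of small-subunit assembly genes, with 5.33 (edgeR, adjusted p under 0.05). The single intron of cpc2, which codes for the small-subunit protein RACK1, rose by 4.15 on the log2 odds scale. With 95.6% of all tested introns rising in the same test, and a median of 5.10, these counts are near the background. Spliced reads of these assembly introns had a median log2 change of -0.04, where that of rps introns was 0.88.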

How the data were processed

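Poly(A) RNA of 6 mutant strains and of WT, the latter in 2 libraries, was analysed from 1 table of the whole series. The authors deposited counts of spliced and unspliced reads per splice junction and library, per the file headers. The aligner STAR 2.5, bedtools 2.26 and build ASM294v2 are given per the submitters' processing notes. The treatment of unspliced reads, of strand and of reads with several matches is not given in the sources used here. Gene symbols, intron numbers and sequences came from the NCBI reference, on whose chromosomes 5134 of 5143 annotated introns began with GT and ended with AG. All 37 rps introns matched a reference intron.

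Introns needed at least 10 reads in every library. The main test was the quasi-likelihood F test of edgeR 4.0.16 (R 4.3.3) on both counts, with a term for each library's total at the intron and a term for the unspliced to spliced ratio of each group. Library scaling therefore plays no part. It had 6 residual degrees of freedom for the class, 1 for a strain against WT and 4 for a strain against the other mutants. Spliced reads alone were tested in edgeR with TMM scaling. P-values were adjusted by Benjamini-Hochberg over all 3352 introns tested, at 0.05. Paralogs and positions were compared within each library as differences in log2 odds with a pseudocount of 0.5, with exact sign-flip tests over the 6 mutants and exact permutation tests of the mutants against WT. Shares of 1 library have 95% Wilson intervals. The scripts were checked on simulated counts.

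DESeq2 1.42.0, limma 3.58.1, minima of 1 and 20 reads, a pseudocount of 1, centring on library medians, summed reads and leaving out each library were tried as alternatives. The rps members, gene lists and tests were chosen with earlier results of these data known. Values in every library are given for all introns of genes with several introns, the 3 most and 2 least different paralog pairs, the 5 largest and 5 smallest differences from WT, introns not called, and the intron of each strain farthest from the other mutants. Other steps used scipy 1.17.1, pandas 2.3.3 and statsmodels 0.14.6 in Python 3.11.15, and matplotlib 3.10.9. The results of 1 paralog pair are not reported here, though counts over all members include them. No value column of the table was left out for want of a sample.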

Additional observations from a re-analysis of the deposited data

Results flagged for a closer look

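In 2 of the 37 rps introns 1 mutant library lay far from the other 5, by a gap to the nearest one above Dixon's 95% critical value for 6 samples (0.680 and 0.664 of the whole range). Chance gives such a gap in about 1 of 20 groups, so 2 of 37 is near what chance gives. At rps3001 the ntr1 share was 44.8%, with the other mutants at or below 20.4%, and both WT libraries at or below 2.51%. At rps901, which codes for a protein of the subunit body near the mRNA entry, the prp1 share was 20.5%. The other mutants had 51.4 to 67.0% there, and WT had 5.19 and 5.15%.

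In prp1, 15 rps introns had lower log2 odds than in the other 5 mutants (edgeR, adjusted p from 0.0286 to 0.0495), where 38.2% of all tested introns fell. Among head proteins the difference was -2.54 at rps1001, -2.47 at rps1002, -2.54 at rps1201, -2.21 at rps1202, -2.58 at rps1601, -2.62 at rps1901 and -2.37 at rps1902. It was -2.12 at intron 1 of rps2501, -2.52 at rps2801, -2.17 at rps2802, -2.12 at intron 1 of rps29 and -2.48 at intron 2 of rps29. At genes for the rest of the subunit it was -2.28 at rps001, -2.42 at intron 1 of rps13 and -2.45 at rps901. The prp1 library had the lowest median share over all tested introns too, 38.9%, against 63.0 to 81.5% in the other mutants. Its part in these differences was not tested.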

How the results depend on the processing

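Of the 37 introns, 34 to 36 rose in the mutants under every other tool, minimum and left-out library, except that centring on library medians gave 0 rises (and 7 falls). For prp1 against the other mutants, 15 became 23 in DESeq2 and 0 in limma, and 3 to 19 with 1 mutant left out. Rises in spliced reads, 21, became 33 in DESeq2 and 0 to 35 with 1 library left out. With 1 mutant left out 0 position differences could pass, because the smallest exact p is then 0.0625. The WT level of 2.60% became 10.9% over summed reads, and 4.34% over summed reads without intron 2 of rps13, a setting chosen after seeing the data. Under it the rps share of unspliced reads, mutants minus WT, turned to 0.915 percentage points, where it was -4.59 with all introns. The difference between rps3001 and intron 1 of rps3002 turned to 0.11 without sap114 and was -0.34 without ntr1, the extremes with 1 mutant left out. Of single introns in the class test, 476 values under alternatives other than centring kept direction and side of the threshold. The 5 that did not are those of rps1801 and rps2202 given above. The causes were not tested.

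No pairing of mutant with WT libraries was possible because each mutant has 1 library and its number does not pair it with a WT library. With 1 library per strain, a strain's own spread is unknown. Depth limits shares most in WT replicate 1, with 420473 reads at annotated introns.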
